A study of Mus musculus with 16 samples.

Results

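The 10 genes described here encode heat shock proteins and their closest partners, namely the HSP70 genes Hspa1a, Hspa1b and Hspa8, the HSP110 gene Hsph1, the J protein genes Dnajb1 and Dnaja1, the HSP90 genes Hsp90aa1 and Hsp90ab1, and the mitochondrial chaperonin genes Hspd1 and Hspe1. They were taken by name, and 10 of 10 were listed among the 18232 genes measured in splenic dendritic cells (DCs). RNA-seq had been done on 16 libraries from C57BL/6 mice of 6 to 8 weeks of age, at an estimated depth of 18.05 to 20.14 M reads. Trim33 fl/fl mice without Cre were the wild type (WT), and Trim33 fl/fl Itgax-Cre mice were the conditional knockout (cKO), so that both genotypes carried the floxed alleles. Itgax is the gene of CD11c, and Cre driven by it acts in CD11c-expressing cells. Each library was a pool of several mice, with more mice in a cKO than in a WT pool. The 3 sorted populations were plasmacytoid DCs (pDCs, SiglecH+) with 3 WT and 3 cKO libraries, cDC1s (MHC II+ CD24+ CD172a-) with 2 and 2, and cDC2s (MHC II+ CD24- CD172a+) with 3 and 3.

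The WT populations carried their defining markers. Siglech averaged 4981 TPM (transcript abundance per length, scaled to 1 total in every library) in WT pDCs against 3.46 in WT cDC1s and 6.20 in WT cDC2s, Xcr1 averaged 305 TPM in WT cDC1s against 3.77 in WT cDC2s, and Sirpa, the gene of CD172a, averaged 485 TPM in WT cDC2s against 5.59 in WT cDC1s. Trim33 averaged 22.3 TPM in WT and 13.6 in cKO pDCs, 16.8 and 7.80 in cDC1s, and 18.7 and 7.71 in cDC2s, so that its transcripts were lower but present in every cKO group. The log2 difference was -0.68 in pDCs (adjusted p = 0.0301), -1.02 in cDC1s (adjusted p = 0.000349) and -1.17 in cDC2s (adjusted p = 0.000126) by limma. In cKO cDC1s, the libraries in which the chaperone calls below were made, 3 of 8 cDC1 markers fell, as did 6.56% of all genes. Among the 3 were Clec9a (541 to 214 TPM) and Cadm1 (194 to 57.5 TPM), while 3 of the 8 had a positive log2 difference. The 8 summed to 2604 to 2685 TPM in WT and 2006 to 2097 in cKO libraries. Of 7 pDC markers tested there 4 rose and 1 fell, where 15.8% of all genes rose. The 8 listed pDC markers summed to 183 to 194 TPM in WT and 327 in both cKO libraries. In cKO cDC2s 2 of 8 cDC2 markers rose and 3 fell, where 3.59% of all genes rose and 3.56% fell. The part of these shifts in the chaperone levels was not tested. The pDC libraries and the cDC libraries were deposited in separate tables, and no test was made between them.

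Heat shock proteins bind unfolded or newly made proteins and release them in cycles of ATP use. HSP70 proteins are recruited to their clients by J proteins and are recharged by nucleotide exchange factors such as HSP110, and HSP90 receives part of those clients for late steps of folding, while the HSP60 and HSP10 chaperonin works in mitochondria. When unfolded proteins accumulate, the transcription factor HSF1 forms trimers, binds inverted repeats of a short unit in heat shock promoters and induces the stress-inducible members, whereas Hspa8 and Hsp90ab1 are constitutive genes.

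The promoters of the members are shown first because the genes that differed most between libraries share an upstream sequence. Promoter windows of 300 bases (250 before and 50 from the start site on) were given in RefSeq on GRCm38.p6 for 7 of the 10 members, in 12 windows. Hspa8, Hsp90aa1 and Hsp90ab1 had none. Each window was searched for a pair of inverted heat shock units, GAANNTTC or TTCNNGAA, each of which reads the same on both strands. The 250 bases before Hspa1a (chr17:34972157-34972406, minus strand) and before Hspa1b (chr17:34959239-34959488, minus strand) were equal at 247 of 250 positions, and each held 1 match, in capitals, that began 104 bases before the start site.
Hspa1a: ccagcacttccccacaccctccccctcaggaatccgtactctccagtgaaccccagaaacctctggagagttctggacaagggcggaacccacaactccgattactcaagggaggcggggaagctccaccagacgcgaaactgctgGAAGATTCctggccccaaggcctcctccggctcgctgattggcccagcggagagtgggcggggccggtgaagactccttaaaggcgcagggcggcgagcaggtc
Hspa1b: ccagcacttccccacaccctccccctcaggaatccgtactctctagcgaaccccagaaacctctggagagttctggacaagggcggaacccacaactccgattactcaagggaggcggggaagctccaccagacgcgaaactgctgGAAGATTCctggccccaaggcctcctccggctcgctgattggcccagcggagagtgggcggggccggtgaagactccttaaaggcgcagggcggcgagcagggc

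Hspd1 and Hspe1 lie head to head on chromosome 1, and 1 window of each overlapped the other by 285 bases, so that both held the same run of overlapping matches. The other Hspd1 window (chr1:55088194-55088493, minus strand) held 0 matches and shared 4 bases with the Hspe1 window. The run is given on the strand of Hspe1, where its 18 bases in capitals begin 89 bases before the start site (chr1:55088053-55088082, plus strand). Dnaja1 held 1 match that began 124 bases before the start site of its first window (chr4:40722333-40722362, plus strand), and Hsph1 held 1 before its start site (chr5:149636351-149636380, minus strand) and 2 after it. Each of these is shown as 30 bases with the matches in capitals.
Hspe1 and Hspd1: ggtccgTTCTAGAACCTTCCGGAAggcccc
Dnaja1: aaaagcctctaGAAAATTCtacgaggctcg
Hsph1: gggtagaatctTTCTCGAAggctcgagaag

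A pair of units was found in any window of 6 of the 7 members, the exception being Dnajb1, against 17.0% of the 27025 genes with a window. A run of 3 alternating units was found for 3 of the 7 (Hspd1, Hspe1 and Hsph1) against 0.662% of all genes. The matches of Hspd1 and Hspe1 are the same DNA and the windows of Hspa1a and Hspa1b are near copies, so these counts are not of independent sequences. A match is a description of letters and not of a bound site.

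Copies also bear on the levels. Of the 50-base windows of the annotated transcripts in GENCODE vM21, 66.3% of those of Hspa1a and 62.3% of those of Hspa1b also occurred in another gene, mostly in each other. The same share was 68.8% for Hspa8, 50.1% for Hsp90aa1, 41.2% for Hspe1, 41.1% for Hspd1 and 27.1% for Dnaja1, the gene sharing most windows being a pseudogene or a gene model with a clone or Gm number in each case, and at most 4.13% for Hsp90ab1, Dnajb1 and Hsph1. With 50-base reads the split of reads within the Hspa1 pair (17:34969359-34972156 for Hspa1a and 17:34956429-34959238 for Hspa1b) is therefore uncertain, and the sum of the pair is given beside the single genes.

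**Figure D1:**
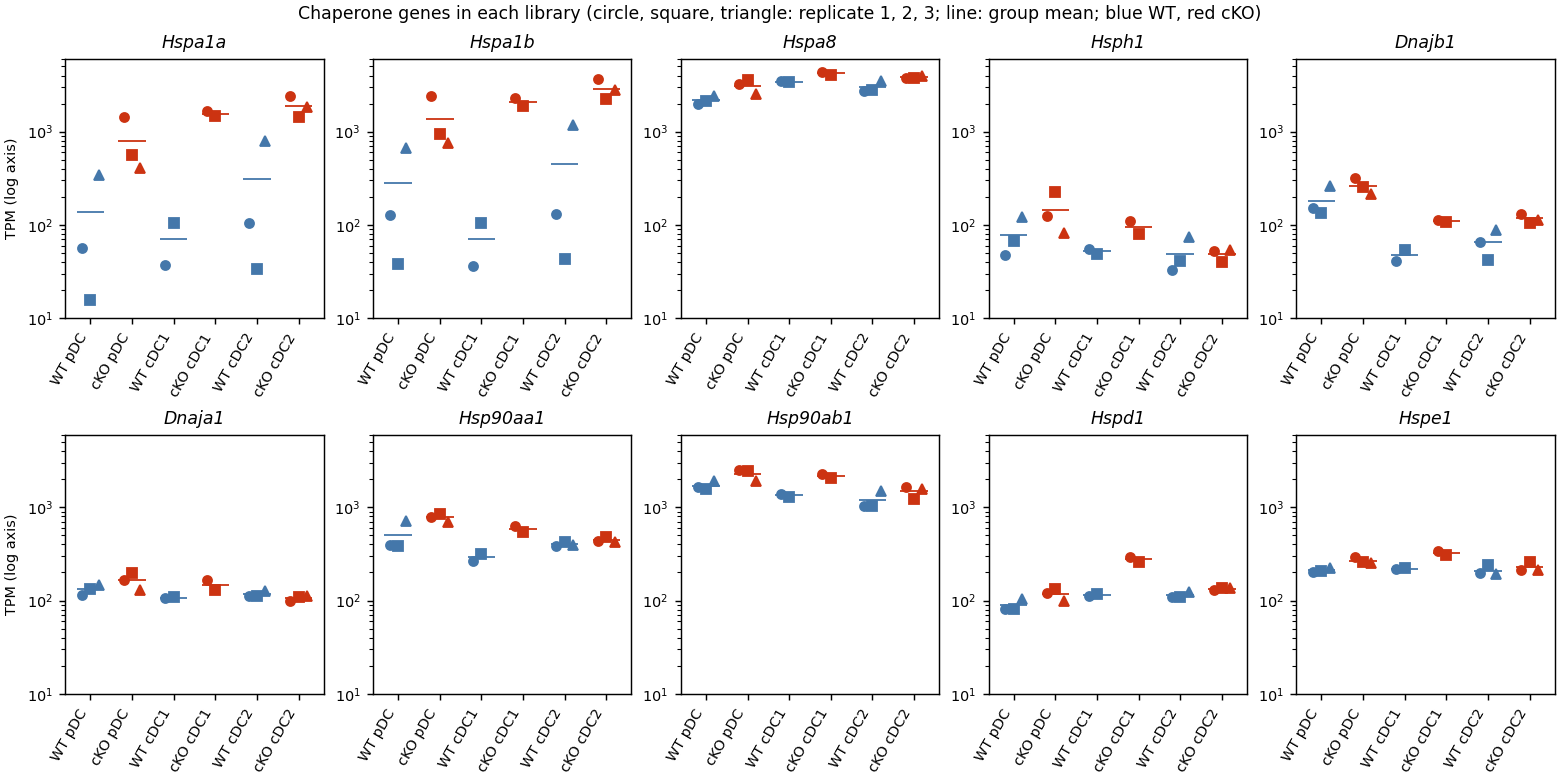
TPM of each of the 10 chaperone genes (vertical log axis) in every library of the 6 groups (horizontal axis), with WT in blue, cKO in red, the replicate number as the marker and the group mean as a line. Hspa1a and Hspa1b run from 15.6 to 3660 TPM, while each of the other genes keeps within a much narrower band.

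In WT DCs the constitutive genes were the most abundant members, TPM being a level per transcript length that allows genes to be compared. Hspa8 had the highest mean level of the 10 in each of the 6 groups, with 2180 TPM in WT pDCs, 3436 in WT cDC1s and 3017 in WT cDC2s. Hsp90ab1 came second in each WT group with means of 1694, 1338 and 1188 TPM. Below them the order of WT means was Hsp90aa1, Hspe1, Hspd1 and Dnaja1 in cDC1s, with Hspa1a, Hspa1b, Hsph1 and Dnajb1 last, and the ranges of Dnaja1 and of each later gene overlapped that of the next. In WT pDCs and WT cDC2s the ranges of the Hspa1 genes spanned those of several others, so that their rank depended on the library. The 10 genes together made up 0.476% to 0.799% of transcripts in the WT libraries and 0.704% to 1.26% in the cKO libraries. In sorted bulk RNA, fewer cells with a transcript and less of it per cell cannot be told apart.

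Between WT cDC1s and WT cDC2s no member passed the test, for which limma's p, adjusted over all genes, had to be 0.01 or less and the log2 difference 0.5 or more in size. Of all 11411 genes tested in cDCs 31.7% passed. Hsp90aa1 was nearest, at -0.46 ± 0.11 (log2 of TPM + 1, standard error) in cDC1s against cDC2s with an adjusted p of 0.00645, and it was called without WT cDC1 replicate 2. The number of members at an unadjusted p under 0.05 was 1, against 6295 of all genes. With median-of-ratios scaling 51.4% of all called genes were higher in WT cDC1s, against 34.4% as deposited.

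The inducible HSP70 genes Hspa1a and Hspa1b showed the widest range of all members, in WT as well as between genotypes. In WT pDCs Hspa1b was at 127, 37.9 and 671 TPM in replicates 1, 2 and 3, and in cKO pDCs at 2399, 945 and 753 TPM. In cDC1s it was at 36.2 and 105 TPM in WT and at 2279 and 1875 in cKO libraries. In cDC2s it was at 130, 43.2 and 1193 TPM in WT and at 3660, 2239 and 2786 in cKO libraries. Every cKO library lay above every WT library of the same subset, but the third WT library of pDCs and of cDC2s lay far above the other WT libraries and close to the lowest cKO library in pDCs.

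Hspa1a ordered the libraries of each group in the same way. It was at 57.2, 15.6 and 343 TPM in WT and 1439, 565 and 404 in cKO pDCs. In cDC1s the values were 37.4 and 106 TPM in WT and 1662 and 1464 in cKO libraries, and in cDC2s 106, 33.8 and 796 TPM in WT and 2416, 1443 and 1844 in cKO libraries. The lowest of these, in WT pDC replicate 2, stood for an estimated 365 reads. Hspa1a was measured at 1.01 to 1.03 times Hspa1b in WT cDC1s and at 0.412 to 0.817 times Hspa1b in the other libraries. The pair summed to 53.5 to 1989 TPM in WT libraries and to 1157 to 6076 TPM in cKO libraries, which was 1.12% to 24.9% of the 10 members' transcripts in WT and 16.0% to 48.4% in cKO libraries.

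On the log2(TPM + 1) scale, Hspa1b differed between cKO and WT by 5.05 ± 1.15 in cDC1s (adjusted p = 0.00668, called), by 3.90 ± 0.94 in cDC2s (adjusted p = 0.0176) and by 3.00 ± 0.93 in pDCs (adjusted p = 0.123). Hspa1a differed by 4.61 ± 1.09 in cDC1s (adjusted p = 0.00804, called), by 3.69 ± 0.89 in cDC2s (adjusted p = 0.0176) and by 3.32 ± 0.99 in pDCs (adjusted p = 0.115). The fold from these values was 33.0 for Hspa1b and 24.4 for Hspa1a in cDC1s. Their calls in cDC1s were made in 10 of 18 alternative settings for Hspa1b and in 6 of 18 for Hspa1a. Without WT cDC2 replicate 3 both genes were called in cDC2s as well, Hspa1b at 5.22 (adjusted p = 0.000278) and Hspa1a at 4.93 (adjusted p = 0.000382). Without WT pDC replicate 3 Hspa1b was at 4.08 in pDCs, with an adjusted p of 0.0411. The cDC1 effect minus the cDC2 effect was 1.15 ± 1.49 for Hspa1b and 0.91 ± 1.41 for Hspa1a, and neither passed. That difference became -0.18 for Hspa1b and -0.32 for Hspa1a without WT cDC2 replicate 3.

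Hspa8, the constitutive HSP70, differed little beside the pair. It ran from 1980 to 2420 TPM in WT and 2508 to 3575 in cKO pDCs, from 3396 to 3475 and 4045 to 4367 in cDC1s, and from 2724 to 3516 and 3726 to 3948 in cDC2s. Every cKO library was above every WT library in each subset, yet the differences of 0.50 ± 0.13, 0.29 ± 0.13 and 0.35 ± 0.11 in pDCs, cDC1s and cDC2s did not pass. Hsph1, a nucleotide exchange factor of HSP70, was at 48.1, 66.5 and 121 TPM in WT and 124, 223 and 82.9 in cKO pDCs, and at 55.8 and 48.8 in WT and 110 and 79.7 in cKO cDC1s. In cDC2s its ranges overlapped, with 33.0 to 73.6 TPM in WT and 40.4 to 54.3 in cKO libraries. Hsph1 did not pass in any subset, the differences being 0.85 ± 0.41, 0.83 ± 0.31 and 0.06 ± 0.26, and it was called in cDC1s without WT cDC2 replicate 3.

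Dnajb1, the J protein gene of the inducible HSP70 system, varied together with the Hspa1 pair. It was at 152, 135 and 259 TPM in WT and 319, 254 and 215 in cKO pDCs, where the groups overlapped. In cDC1s it was at 40.8 and 54.2 TPM in WT and 112 and 106 in cKO libraries, and in cDC2s at 65.9, 41.7 and 88.7 in WT and 132, 106 and 114 in cKO libraries, with no overlap in either subset. Dnajb1 rose in cKO cDC1s by 1.19 ± 0.28 (limma adjusted p = 0.00773), a call made in 6 of 19 alternative settings. It differed by 0.89 ± 0.23 in cDC2s (adjusted p = 0.0226), where it was called without WT cDC2 replicate 3, and by 0.57 ± 0.24 in pDCs (adjusted p = 0.234). Dnaja1, the other J protein gene, was at 106 and 109 TPM in WT and 167 and 129 in cKO cDC1s. Its differences were 0.31 ± 0.15 in pDCs, 0.45 ± 0.13 in cDC1s and -0.12 ± 0.11 in cDC2s, none of which passed, and it was the only 1 of the 10 genes with a negative value in any genotype comparison.

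**Figure D2:**
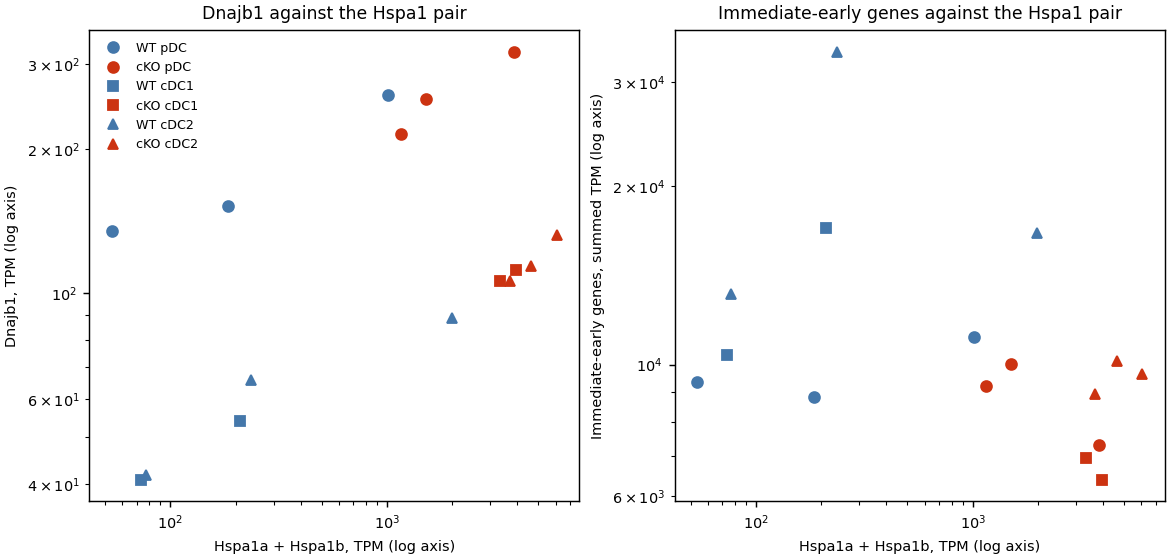
Left, TPM of Dnajb1 (vertical log axis) against the summed TPM of Hspa1a and Hspa1b (horizontal log axis) in the 16 libraries; right, the summed TPM of 24 immediate-early genes (vertical log axis) against the same pair. Circles are pDCs, squares cDC1s and triangles cDC2s, with WT in blue and cKO in red. Dnajb1 climbs with the pair within the cDC libraries and within the pDC libraries, and the immediate-early sum is lowest in the cKO cDC1 libraries.

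Across the 10 cDC libraries the Pearson r of log2(TPM + 1) with Hspa1b was 0.998 for Hspa1a and 0.989 for Dnajb1, and 0.947 for Dnajb1 once group means were removed. These points share their libraries and their scaling, and the genotype difference is among them. The same r was 0.758 for Hspa8, 0.716 for Hsp90aa1, 0.658 for Hsp90ab1, 0.563 for Hspd1, 0.455 for Hsph1, 0.321 for Dnaja1 and 0.320 for Hspe1. With group means removed it was -0.004 for Hsp90aa1 and -0.573 for Hspe1. For the others of these it then ran from 0.415 for Dnaja1 to 0.797 for Hspa8. Over the 6 pDC libraries the r with Hspa1b was 0.970 for Dnajb1 and 0.940 for Hsp90aa1. With group means removed these became 0.961 and 0.858. Of genes outside the 10, the 5 with the highest r over the cDC libraries were Gnai2 (0.972), Diaph3 (0.972), Ncaph (0.971), Pkmyt1 (0.971) and Fanci (0.966). Once group means were removed, their r over the cDC libraries ran from 0.878 for Fanci to 0.949 for Diaph3. High r with Hspa1b in cDCs was thus not particular to Dnajb1. Over the pDC libraries their r with Hspa1b ran from 0.619 for Gnai2 to 0.831 for Pkmyt1, below that of Dnajb1. With group means removed it ran from -0.153 for Gnai2 to 0.549 for Pkmyt1 in pDCs.

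Of the cytosolic HSP90 genes, the inducible Hsp90aa1 was called in cDC1s and the constitutive Hsp90ab1 in no subset under the main settings. Hsp90aa1 was at 264 and 319 TPM in WT and 627 and 540 in cKO cDC1s, at 382, 423 and 394 in WT and 435, 478 and 429 in cKO cDC2s, and at 397, 386 and 712 in WT and 795, 846 and 701 in cKO pDCs. The genotypes did not overlap in cDC1s and cDC2s, and in pDCs the third WT library exceeded the third cKO library. Hsp90aa1 rose in cKO cDC1s by 1.00 ± 0.12 (adjusted p = 0.000279) and was called there in 19 of 19 alternative settings. It differed by 0.16 ± 0.10 in cDC2s and 0.70 ± 0.22 in pDCs without passing. The cDC1 effect exceeded the cDC2 effect by 0.84 ± 0.16, with an adjusted p of 0.0115 that missed the threshold. Hsp90ab1 averaged 1338 TPM in WT and 2152 in cKO cDC1s and differed by 0.69 ± 0.19 there (adjusted p = 0.0180), by 0.32 ± 0.16 in cDC2s and by 0.42 ± 0.12 in pDCs, with no call. In cDC1s Hsp90ab1 was called in 2 of 19 alternative settings. These were the replicate block and the fit without WT cDC2 replicate 3 (limma adjusted p = 0.00377).

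Hspd1 (HSP60) and Hspe1 (HSP10), the mitochondrial chaperonin and its lid, both rose in cKO cDC1s and were not called in cDC2s or pDCs. Hspd1 was at 113 and 118 TPM in WT and 292 and 259 in cKO cDC1s. In cDC2s it was at 108, 109 and 125 TPM in WT and 129, 137 and 136 in cKO libraries, and in pDCs at 80.9, 80.8 and 105 in WT and 119, 132 and 97.8 in cKO libraries. The 2 cKO cDC1 libraries were the highest of the 10 cDC libraries. Hspd1 rose in cKO cDC1s by 1.25 ± 0.10 (adjusted p = 4.46e-05), a call made in 19 of 19 alternative settings. Its differences in cDC2s (0.23 ± 0.09) and pDCs (0.38 ± 0.14) did not pass.

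Hspd1 was also the 1 member whose cDC1 effect differed from its cDC2 effect, by 1.02 ± 0.14 (adjusted p = 0.00222), where 2.56% of all genes were called in either direction. That call was lost without WT cDC1 replicate 1 or without cKO cDC1 replicate 1, the highest adjusted p over the alternatives being 0.0202. Its partner Hspe1 was at 216 and 224 TPM in WT and 342 and 311 in cKO cDC1s, and at 196, 238 and 191 in WT and 211, 259 and 214 in cKO cDC2s. Hspe1 rose in cKO cDC1s by 0.56 ± 0.14 (limma adjusted p = 0.00915), the smallest change of the called members. That call was made in 7 of 19 alternative settings and was lost with median-of-ratios scaling, among others. Hspe1 differed by 0.13 ± 0.11 in cDC2s and by 0.34 ± 0.07 in pDCs (limma adjusted p = 0.0391). The ratio of Hspd1 to Hspe1 in TPM was 0.520 and 0.526 in WT and 0.854 and 0.833 in cKO cDC1s, and between 0.386 and 0.653 in the other libraries, so Hspd1 and Hspe1 did not change in equal measure.

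**Figure D3:**
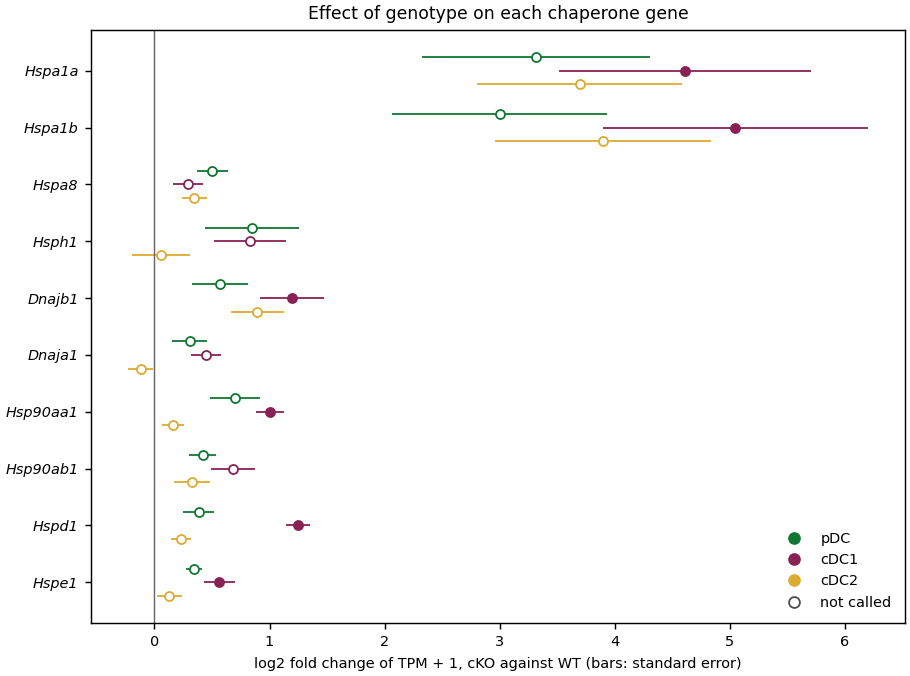
Log2 fold change of TPM + 1 in cKO against WT (horizontal axis) with its standard error for each of the 10 genes (vertical axis) in pDCs, cDC1s and cDC2s. Filled points passed the test and open points did not. All 6 filled points belong to cDC1s, and Dnaja1 in cDC2s is the 1 point below 0.

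Counted over the 10 genes, cDC1s held all calls. In cDC1s 6 of 10 rose in cKO libraries (Hspa1a, Hspa1b, Dnajb1, Hsp90aa1, Hspd1 and Hspe1) and none fell, where 15.8% of all 11411 genes were called higher, 6.56% lower and 22.4% in either direction. The median of the members was 0.92 against 0.17 for all genes. In each of the 10 every cKO cDC1 library lay above every WT cDC1 library, a pattern seen in 52.1% of all genes with 2 libraries against 2. With median-of-ratios scaling, which moved the median of all genes from 0.17 to 0.02 and the called genes from 1806 higher and 749 lower to 1068 and 1070, 3 members were called (Hsp90aa1, Hspd1 and Hspa1b), all 10 kept a positive value and Hspe1 was at 0.39. Only Hsp90aa1 and Hspd1 were called when any 1 of the cDC1 libraries, or replicate 1 or 3 of the cKO cDC2 libraries, was left out, and 3 members were called without WT cDC2 replicate 1 or cKO cDC2 replicate 2.

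In cDC2s 0 of 10 members were called by limma, where 7.15% of all genes were called, 3.59% higher and 3.56% lower. Of the 10, 5 had an unadjusted p under 0.05, as had 3896 of the 11411 genes, and 9 a positive value, with a median of 0.28 against -0.03 for all genes. Every cKO library was above every WT library for 6 members (Hspa1a, Hspa1b, Hspa8, Dnajb1, Hsp90aa1 and Hspd1), a pattern held by 16.3% of all genes. WT cDC2 replicate 3 was the highest WT library for 8 of the 10 genes, and without it 3 members were called (Hspa1a, Hspa1b and Dnajb1).

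In pDCs 0 of 10 members were called by limma, where 1.05% of the 11299 genes tested were called and 0.814% were called higher. The deleted gene Trim33 was not among those called. Of the 10, 8 had an unadjusted p under 0.05, as had 2352 of the 11299 genes, and 10 a positive value, with a median of 0.54 against -0.05 for all genes. For 5 members (Hspa1a, Hspa1b, Hspa8, Hsp90ab1 and Hspe1) every cKO library was above every WT library, as for 10.8% of all genes. Among pDC libraries the third of each genotype stood apart from the others. WT pDC replicate 3 was the highest WT library for 10 of 10 members and cKO pDC replicate 3 the lowest cKO library for 10 of 10. No label pairs the WT with the cKO libraries. Taken by replicate number alone, 10 of 10 members were higher in cKO for numbers 1 and 2, with medians of 0.86 and 0.82. For number 3 this held for 5 of 10, with a median of -0.01. The members lower in the third cKO library than in the third WT library were Dnaja1, Dnajb1, Hsp90aa1, Hspd1 and Hsph1. No member was called in pDCs with any library left out or with the replicate number as a block.

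The genes that work with these chaperones were counted in 8 lists of 112 genes by role. In cDC1s 29 of the 101 tested rose and 4 fell, with a median of 0.32, where 15.8% of all genes were called higher and 6.56% lower and the median was 0.17. With median-of-ratios scaling 18 rose and 6 fell, where 1068 of 11405 genes were called higher and 1070 lower. With any 1 of the 4 cDC1 libraries left out 13 to 19 were called. In cDC2s 1 rose and 2 fell, with a median of 0.02, where 3.59% of all genes were called higher and 3.56% lower. In pDCs 0 of 100 were called by limma, with a median of -0.03, and 10 had an unadjusted p under 0.05, as had 2352 of the 11299 genes.

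The counts by list in cDC1s are small and stand beside the same 15.8% of all genes called higher. Of the other HSP70 genes 4 of 9 were called, all higher. They were Hspa9, the mitochondrial HSP70, at 0.95 ± 0.10, Hspa4, an HSP110 relative, at 0.76 ± 0.09, Hyou1 of the endoplasmic reticulum at 0.64 ± 0.15 and Hspa14 at 0.54 ± 0.11. Of 15 other HSP90 genes and cochaperones 6 rose, namely Fkbp4 (1.04 ± 0.13), Aarsd1 (0.91 ± 0.12), Ppid (0.87 ± 0.10), Stip1, which bridges HSP70 and HSP90 (0.80 ± 0.18), Ahsa1, an activator of the HSP90 ATPase (0.65 ± 0.13), and Ptges3 (0.56 ± 0.09). Of 14 genes of TRiC, the cytosolic chaperonin, and of prefoldin, which hands clients to it, 7 rose by 0.55 to 0.74 and Pfdn5 fell by 0.64. Of 12 HSP70 cofactors Hspbp1 rose by 1.25 ± 0.14 and Bag2 by 0.94 ± 0.19. Of 8 genes of mitochondrial protein quality control the proteases Lonp1 (0.81 ± 0.16) and Clpp (0.55 ± 0.11) and the disaggregase Clpb (0.62 ± 0.12) rose. Apart from Hspbp1, these genes were chosen for naming after their values were seen.

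Of 37 other J protein genes tested in cDC1s 6 rose, by 0.56 to 1.11, and 3 fell. Of all genes 15.8% were called higher there and 6.56% lower. The median of the 37 was 0.04 against 0.17 for all genes. The 3 that fell were Dnajc22 at -1.57 ± 0.24, Dnajb13, a ciliary radial spoke protein, at -1.27 ± 0.29 and Dnaja4 at -1.16 ± 0.16. Dnajc22 and Dnaja4 were near the floor in cDC1s. Dnajc22 was at 3.17 and 1.44 TPM in WT and 0.08 and 0.07 in cKO cDC1s, and Dnaja4 at 2.14 and 1.97 against 0.38 and 0.36. The size of their fall therefore depended on the settings, with Dnajc22 in cDC1s from -3.68 to -1.06 over the alternatives. Dnajc22 and Dnaja4 fell in cDC2s as well, at -1.81 ± 0.19 and -1.53 ± 0.13. Dnaja4 was at 5.13, 6.24 and 6.62 TPM in WT and 1.46, 1.25 and 1.53 in cKO cDC2s. Hspb1, a small heat shock protein, rose by 2.44 ± 0.46 in cDC1s and by 2.57 ± 0.37 in cDC2s, and was thus the 1 heat shock gene called higher in both. It was at 2.29 and 1.27 TPM in WT and 12.3 and 15.6 in cKO cDC1s, and at 0.73, 3.29 and 3.52 in WT and 27.8, 13.3 and 16.0 in cKO cDC2s. In pDCs Hspb1 was at 0.28, 0.14 and 1.66 TPM in WT and 11.6, 3.81 and 2.81 in cKO libraries, with no call. None of 3 heat shock factor genes tested was called in any subset. Hsf1, the gene of the factor that induces heat shock genes, averaged 56.4 TPM in WT and 70.0 in cKO cDC1s. In cDC2s it was at 47.8, 52.4 and 74.3 TPM in WT and 66.0, 47.35 and 57.9 in cKO libraries. In pDCs it was at 72.4, 83.4 and 83.6 TPM in WT and 76.4, 77.7 and 80.35 in cKO libraries. The genotypes overlapped in both.

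**Figure D4:**
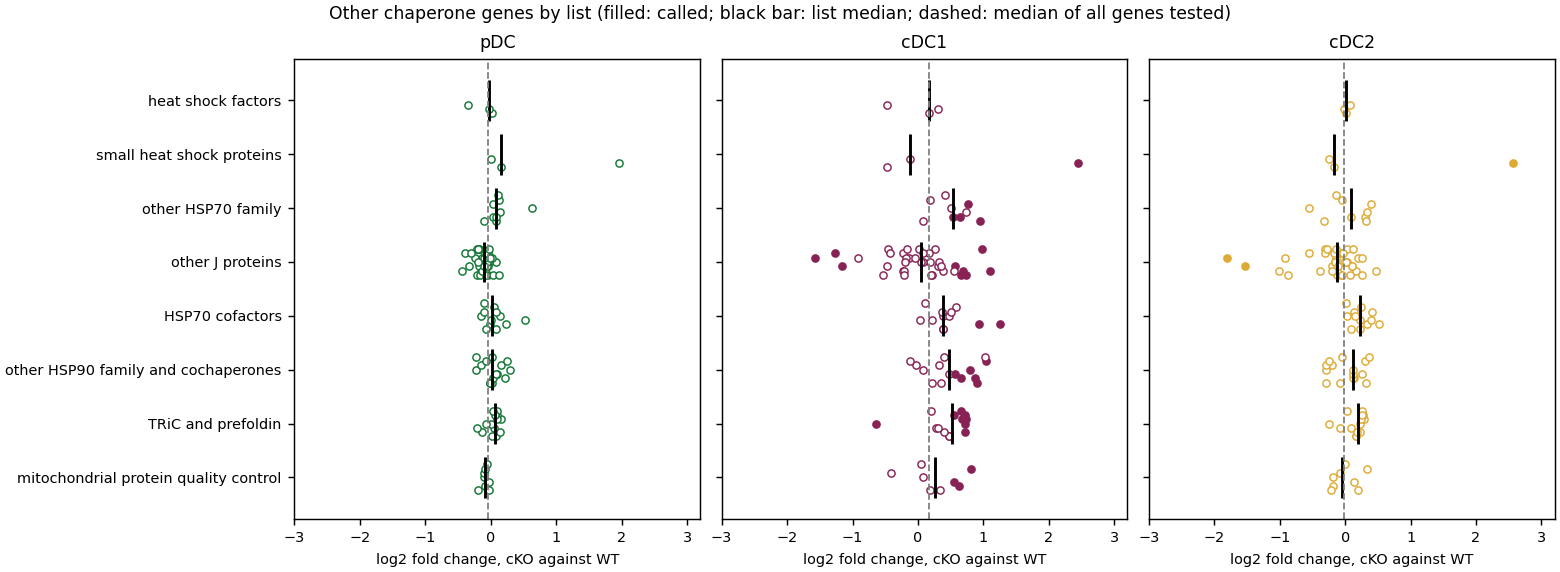
Log2 fold change of TPM + 1 in cKO against WT (horizontal axis) for every tested gene of 8 chaperone lists (vertical axis) in pDCs, cDC1s and cDC2s. Filled points passed the test, black bars are list medians and the dashed line is the median of all genes tested. Filled points number 33 in cDC1s, 3 in cDC2s and 0 in pDCs.

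Other sets moved with genotype beside the chaperones. Of 24 immediate-early genes, which are induced within minutes of a signal, 9 fell in cKO cDC1s (Egr1, Egr2, Egr3, Ier3, Ier5, Junb, Dusp1, Dusp2 and Nr4a3), with a median of -1.29, and 3 fell in cKO cDC2s (Egr1, Ier3 and Ier5), with a median of -1.14. Of all genes 6.56% were called lower in cDC1s, with a median of 0.17, and 3.56% in cDC2s, with a median of -0.03. With single libraries left out the count in cDC1s ran from 3 without cKO cDC1 replicate 1 to 17 without WT cDC2 replicate 1, and in cDC2s from 1 without cKO cDC2 replicate 2 or 3 to 8 without WT cDC2 replicate 3, with 7 and 5 without WT cDC2 replicates 1 and 2. Their summed level was 10377 to 17008 TPM in WT and 6387 to 6946 in cKO cDC1s, 13164 to 33798 in WT and 8914 to 10144 in cKO cDC2s, and 8829 to 11126 in WT and 7313 to 10002 in cKO pDCs, where the groups overlapped. Within WT, the library of cDC2s with the most immediate-early transcripts was replicate 1 and that with the most Hspa1 transcripts was replicate 3. Their part in the chaperone levels was not tested.

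Markers of other cells ranged widely. Those of red cells, which include the haemoglobin genes, were the most abundant, with sums of 6 genes from 278 to 7959 TPM in WT and from 737 to 4229 TPM in cKO libraries. They were highest in WT cDC2 replicate 2, overlapped between genotypes in each subset, and 0 of 5 tested were called by limma in any subset, with 0 at an unadjusted p under 0.05. The 8 monocyte and macrophage markers summed to 359 to 593 TPM in WT and 419 to 592 in cKO cDC2s, to 256 to 270 and 253 to 335 in pDCs, and to 86.9 to 105 and 120 to 131 in cDC1s. Of 7 tested in cDC1s 1 rose and 1 fell, where 15.8% of all genes were called higher and 6.56% lower. Although the sum was higher in cKO cDC1s, only 1 of these 7 had a positive value, with a median of -0.86. In cDC2s 1 of 7 rose, where 3.59% of all genes were called higher, and 5 had a positive value. In pDCs 0 of 8 were called by limma and 7 had a positive value, with a median of 0.47. There 4 had an unadjusted limma p under 0.05, as had 2352 of the 11299 genes.

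The summed level of 7 neutrophil markers was 1.46 to 33.1 TPM in WT libraries and 18.4 to 130 in cKO libraries, the highest being cKO pDC replicate 1. None of the 4 tested was called by limma in any subset, but all 4 had a positive value in each subset. Their median was 1.48 in pDCs, 1.69 in cDC1s and 1.00 in cDC2s. In pDCs 2 of the 4 had an unadjusted limma p under 0.05, as had 2352 of the 11299 genes. The 6 T cell markers measured summed to 7.02 to 9.56 TPM in WT and 14.3 to 17.9 in cKO pDCs, and Cd3e was at 0 to 0.24 TPM in the pDC libraries. Of 2 T cell markers tested in pDCs 0 were called, where 1.05% of all genes were called, and 2 had an unadjusted p under 0.05 by limma. The 5 B cell markers measured summed to 6.36 to 21.5 TPM in WT and 18.05 to 76.6 in cKO pDCs. Of 4 tested there 4 had a positive value and 1 was called higher, where 0.814% of all genes were called higher. Of 3 B cell markers tested in cDCs 1 rose and 1 fell in cDC1s, and 1 fell in cDC2s. Of all genes 15.8% were called higher and 6.56% lower in cDC1s, and 3.56% lower in cDC2s. The part of these cells in the chaperone levels was not tested.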

How the data were processed

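Splenic DCs were sorted after depletion of other lineages, and RNA-seq with 50-base single-end reads was done on 16 libraries. Per the labels and the study's methods, the authors mapped reads to mm10 with HISAT2 2.0.4 and aligned them to transcripts with Bowtie2 2.2.5, and quantified genes with RSEM 1.2.12. The deposited values used here were TPM per gene, which the authors scaled to the same total in every library. The deposited FPKM values were used as an alternative and to estimate depth. Counts were not used here, so limma stands in for a count test. All 32 value columns were mapped to libraries and 0 were left over. Of the Entrez gene IDs 17079 of 17128 (pDC table) and 17667 of 17721 (cDC table) matched RefSeq on GRCm38.p6, which gave symbols and coordinates.

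Genes with a mean of at least 1 TPM over the fitted libraries were fitted as log2(TPM + 1) with limma 3.58.1 in R 4.3.3 (eBayes with trend), the pDC table alone and the 10 cDC libraries together with 4 group means, so that the cDC1 comparison of 2 against 2 libraries borrows its spread from cDC2s. Fold changes on this scale understate the change of low genes. A gene was called at a Benjamini-Hochberg adjusted p of at most 0.01 over all genes tested where the log2 difference was 0.5 or more in size. The libraries are described as biological replicates, each a pool of mice, so p-values measure the spread between pools. Replicates had r of 0.991 to 0.997, and no libraries held identical values. In pDCs same-numbered WT and cKO libraries deviated together from their group means (r of 0.310, 0.392 and 0.206). No label pairs them, and in cDC2s a differently numbered WT and cKO library reached 0.468 (WT replicate 3 and cKO replicate 1). Pairing by number in pDCs is thus judged from the data alone and remains uncertain. Depth was estimated from the spacing of low FPKM values of single-exon genes as 18.05 to 20.14 M reads per library.

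The named genes were the 10 members, up to 5 called genes of the other chaperone lists per genotype comparison, the 5 genes most correlated with Hspa1b, the called immediate-early genes and Trim33. The members and lists were chosen with earlier results of these data known. The fits were tested on simulated data. Alternatives were a pseudocount of 0.1, no filter, other scalings, FPKM, no trend, a replicate block, the Hspa1 pair summed and each library left out.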

Additional observations from a re-analysis of the deposited data

Results flagged for a closer look

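The cDC1 effect of genotype differed from the cDC2 effect for 3 chaperone genes by the interaction term of the limma fit over 10 cDC libraries. These were 1 of the 10 members and 2 of the 101 other chaperone genes tested, where 2.56% of all 11411 genes were called. For Hspd1 the difference was 1.02 on the log2 scale (adjusted p = 0.00222), higher in 2 of 2 cKO cDC1 libraries than in any other cDC library. For Dnajc25, a J protein gene, it was 1.12 (adjusted p = 0.00777), with 7.23 and 6.76 TPM in WT and 15.5 and 14.1 in cKO cDC1s against 13.9, 15.4 and 19.0 in WT and 15.3, 14.8 and 13.2 in cKO cDC2s, and the call was made in 8 of 19 alternatives. For Ppid, an immunophilin partner of HSP90, it was 0.75 (adjusted p = 0.00680), with 48.8 and 49.8 TPM in WT and 95.0 and 86.6 in cKO cDC1s against 66.3, 72.2 and 70.9 in WT and 74.0, 80.3 and 72.8 in cKO cDC2s, and the call was made in 5 of 19 alternatives. Dnajc25 and Ppid were named after their values were seen.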

How the results depend on the processing

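The 6 members called in cDC1s became 2 without the filter on low genes, 3 with median-of-ratios scaling, 3 with quantile normalization and 3 without the trend, and with single libraries left out the number ran from 2 to 8. It was 6 with a pseudocount of 0.1, 5 with FPKM, 5 with the Hspa1 pair summed and 7 with the replicate block. In cDC2s the number was 0 except for 3 without WT cDC2 replicate 3 (0 to 3 over left-out libraries), and it was 0 in pDCs in 14 of 14 alternatives. The interaction gave 0 to 1 members over left-out libraries, and WT cDC1 against WT cDC2 gave 0 to 1. In pDCs the replicate block raised the calls over all genes from 119 to 335 and the number of members stayed at 0. Same-numbered libraries correlated at -0.233 in cDC1s and at -0.249, 0.253 and -0.165 in cDC2s, so the numbers were not taken to pair them. With the cKO cDC1 numbers crossed, an alternative chosen after seeing the data, 5 members were called in cDC1s and 2 in the interaction. The other alternatives of the chaperone lists were also chosen after seeing the data. The other chaperone genes called in cDC1s numbered 13 to 36 over left-out libraries, and the 3 in cDC2s became 5 with median-of-ratios scaling, 5 with quantile normalization, 5 with FPKM and 3 to 5 over left-out libraries. Hsph1 in cDC2s changed sign, at -0.19 without WT cDC2 replicate 1, -0.02 without WT cDC2 replicate 2 and -0.02 without cKO cDC2 replicate 3, and ran from -0.19 to 0.38 over left-out libraries. The causes were not tested. The lowest value of Hspa1a or Hspa1b stood for about 365 reads, so that depth limited the members less than the spread between libraries.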
